A study of Homo sapiens with 4 samples.

Results

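NF-κB is a family of dimeric transcription factors, and the genes described here are its 5 subunits together with 5 genes of its feedback control. RELA, RELB and REL encode the subunits that carry a transactivation domain, while NFKB1 and NFKB2 encode precursors that are processed into the smaller DNA-binding subunits. NFKBIA, NFKBIB and NFKBIE encode IκBα, IκBβ and IκBε, which hold dimers in the cytoplasm, BCL3 encodes a nuclear member of the same protein family, and TNFAIP3 encodes a ubiquitin-editing enzyme that dampens upstream signaling. The 10 genes were taken by name from the deposited expression table, which lists 47432 genes, and all 10 were present and above 0 in every library.

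In the canonical pathway, a kinase complex marks IκB proteins for degradation and frees mainly dimers of RELA with the NFKB1 product. In the noncanonical pathway, the kinase encoded by MAP3K14 drives processing of the NFKB2 precursor and frees dimers with RELB. Several NF-κB genes are themselves targets of NF-κB, so that dimers raise the transcripts of their own subunits and inhibitors. In epithelial tumor cells the pathway is known for chemokine, cytokine and survival genes. By these roles 7 of the genes were read as canonical (NFKB1, REL, RELA, NFKBIA, NFKBIB, NFKBIE and TNFAIP3) and 2 as noncanonical (NFKB2 and RELB), with BCL3 apart.

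The cells were T24, an established line of invasive human bladder carcinoma. RNA-seq was performed on 2 control libraries and 2 libraries of cells given isorhapontigenin (ISO), a plant stilbene, at 20 µM for 24 h. Control cells are untreated by the labels and received DMSO as vehicle by the study's methods, and the labels and the methods also name different culture media. No source used here states whether libraries a and b of a group stem from different cultures, and the p-values reflect only how far these libraries spread, possibly for technical reasons.

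The deposited values are RPKM, which corrects exon reads for the length of the gene model and for library size. Multiplied by exon lengths they returned whole reads, 32349827 to 42879427 per library on genes, and 3 reads on 1 kilobase of exon then amount to 0.0670 to 0.0885 RPKM. Of 17 urothelial and epithelial markers, the keratin KRT7 stood at 310.4 to 371.3 RPKM, EPCAM at 1.14 to 1.30, and KRT5, KRT13 and KRT20 were at 0 in all 4 libraries. The uroplakins UPK1B and UPK3A stayed at or below 0.022 RPKM, while UPK1A stood at 0.108 to 0.180 RPKM and UPK2 at 0.327 to 0.473. CDH1 stayed at or below 0.005 RPKM. Of 12 leukocyte markers only CD14 had a mean of at least 0.1 RPKM, and the summed level of that list was 3.07 to 3.13 RPKM in control and 3.18 to 3.74 in ISO. Of 12 fibroblast and endothelial markers, 5 were at 0 in all 4 libraries and the sum was 18.98 to 19.06 RPKM in control and 15.61 to 16.43 in ISO, nearly all of it CDH5. The epithelial sum was 855.7 to 866.5 RPKM in control and 741.4 to 750.3 in ISO, most of it KRT7 and KRT18. In the limma test described below, 10 of the 17 epithelial markers were tested. KRT7, KRT18, KRT19 and PPARG fell, while GATA3 and FOXA1 rose. The log2 fold changes of PPARG, GATA3 and FOXA1 were -0.95, 0.49 and 0.36. The part of these marker shifts in the results that follow was not tested.

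Promoter sequence is shown first, because feedback of NF-κB on its own genes runs through κB sites. RefSeq windows on GRCh38.p14, each from 250 bases before to 50 bases after a start site, were at hand for 8 of the 10 genes, RELB and NFKBIE having none here. The κB consensus, a motif of 10 bases, was searched on both strands, and a match on one strand could overlap a match on the other. Matches lay in 8 of the 13 windows of these genes and in 5.91% of all 35116 windows. Of the 8 genes only RELA had no match, in either of its windows. Among the known NF-κB target genes described below, 20 of the 39 with a window (51.3%) had a match in any of their windows. That share counts genes, whereas the 5.91% counts single windows, so the shares are not on the same scale. The stretches below run 5′ to 3′ on the strand of the gene, with matched bases in capitals. They show the kind of element found in those subunit and inhibitor genes that had a match.
NFKB1: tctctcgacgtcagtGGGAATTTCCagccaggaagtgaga
NFKB2: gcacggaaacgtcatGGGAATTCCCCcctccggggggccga
REL: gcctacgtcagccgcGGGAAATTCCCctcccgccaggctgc
NFKBIA: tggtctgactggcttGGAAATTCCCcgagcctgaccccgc
NFKBIB: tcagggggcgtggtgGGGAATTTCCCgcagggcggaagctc
TNFAIP3: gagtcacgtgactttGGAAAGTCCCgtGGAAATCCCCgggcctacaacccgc

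These stretches lie at chr4:102501295-102501334 (NFKB1, plus strand), chr10:102394456-102394496 (NFKB2, plus), chr2:60881512-60881552 (REL, plus), chr14:35404806-35404845 (NFKBIA, minus), chr19:38899926-38899966 (NFKBIB, plus) and chr6:137867177-137867228 (TNFAIP3, plus). The match of NFKB1 began 49 bases before its start site, that of REL 47, that of NFKBIA 81 and that of NFKBIB 28. The NFKB2 stretch began its match 107 bases before the start site, and that gene held further matches, of which one began 78 bases before the same start site. TNFAIP3 carried a pair of matches close together, the first 67 bases before the start site, and BCL3 had its match just after its start site. A match of letters is a description of the sequence and no evidence of binding in these cells.

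ISO and control libraries were compared on log2(RPKM + 0.1) after TMM scaling with limma over the 15304 genes with a mean of at least 0.1 RPKM, and genes passed at an adjusted p under 0.05. All 10 genes were tested. RELB rose and RELA fell, and the other 8 did not pass. Over all tested genes 3.89% rose and 5.94% fell, 9.83% in all, so that 1 gene of 10 in each direction is close to the share of all genes. The median log2 fold change of the 10 genes was 0.01, against -0.01 over all tested genes. In TMM-scaled RPKM, 5 of the 10 genes had groups that did not overlap, against 57.1% of all tested genes.

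**Figure D1:**
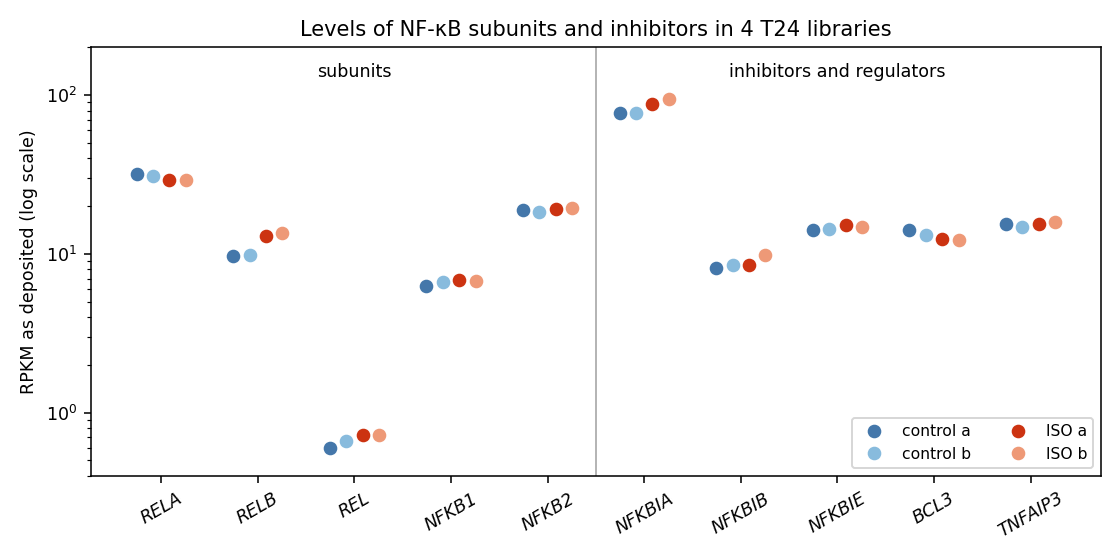
Deposited RPKM (log axis) of the 5 subunit genes and the 5 inhibitor and regulator genes, with 1 point per library, control in blue and ISO in red. NFKBIA stands highest, between 77.1 and 94.7 RPKM, and REL lowest, between 0.596 and 0.720 RPKM; RELB is the subunit whose ISO points sit clearly above the controls.

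Among the subunits, RELB, the partner of the NFKB2 product, changed most. It lies at chr19:45001461-45038192 (plus strand, hg38, GENCODE). RELB was at 9.67 RPKM in control a and 9.81 in control b, and at 13.0 in ISO a and 13.5 in ISO b. Both ISO libraries were above both controls, by far more than the libraries of a group differed from each other. The means were 9.74 ± 0.103 RPKM in control and 13.3 ± 0.389 RPKM in ISO (SD, n = 2). After scaling the change was 1.30-fold (log2 fold change 0.38, standard error 0.039, 95% interval 0.28 to 0.47, adjusted p = 0.0047 from limma). By p-value RELB ranked 148 of the 15304 genes. Each library had 1245 to 1590 recovered reads on RELB, and the call held under all 13 alternative settings. In bulk RNA, a change in the number of expressing cells and a change in RNA per cell cannot be told apart.

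RELA, the main transactivating subunit of the canonical pathway, moved the other way. It lies at chr11:65653599-65663090 on the minus strand. Its level was 31.9 RPKM in control a, 31.0 in control b, 29.2 in ISO a and 29.3 in ISO b. The groups did not overlap, but the gap between them was small. RELA fell by 0.17 in log2 units (standard error 0.038, 95% interval -0.26 to -0.08, adjusted p = 0.042 from limma), a change of -11.1%. This call was lost on RPKM as deposited (adjusted p = 0.086) and on leaving out any single library of the 4 (0.093 to 0.198 as adjusted p, limma). A divergent transcript on the opposite strand, RELA-DT, shares 103 of the 5457 exon bases of RELA and stood at 0.266 to 0.438 RPKM.

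The precursor genes did not pass. NFKB1 was at 6.31 RPKM in control a, 6.66 in control b, 6.89 in ISO a and 6.79 in ISO b, a log2 fold change of 0.01 (95% interval -0.10 to 0.12, adjusted p = 0.91 from limma). NFKB2 was at 18.8 RPKM in control a, 18.4 in control b, 19.1 in ISO a and 19.6 in ISO b, a log2 fold change of -0.01 (95% interval -0.10 to 0.08, adjusted p = 0.90 from limma). The intervals reach up to 9.03% above control for NFKB1 and 5.74% for NFKB2. A rise as large as that of RELB, its noncanonical partner, lay outside the interval of NFKB2.

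REL, the subunit best known from lymphoid cells, was the least abundant of the family. It was at 0.596 RPKM in control a, 0.666 in control b, 0.720 in ISO a and 0.719 in ISO b, from 417 to 504 recovered reads spread over a long exon model. Its log2 fold change of 0.11 had a wide interval, -0.16 to 0.38, and did not pass (adjusted p = 0.60 from limma). An unnamed gene annotated on the same strand shares 5702 of the 17129 exon bases of REL, and the reads of the pair cannot be told apart there, so the level of REL is uncertain.

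The RPKM of the subunits gave the same order in all 4 libraries, RELA above NFKB2, RELB, NFKB1 and REL. This order and the shares below rest on the exon model lengths, 15679 bases for NFKB1, 5583 for NFKB2 and 2997 for RELB. By recovered reads NFKB1 stood above RELB, with 4430 against 1298 in control a, where NFKB2 had 4697. RELA held 47.4% and 46.6% of the summed RPKM of the 5 subunits in the controls, and 42.4% and 41.9% in the ISO libraries. The share of RELB was 14.4% and 14.7% in control and 18.8% and 19.4% in ISO. The shares of NFKB2 stayed between 27.7% and 28.0%, and those of NFKB1 between 9.38% and 10.0%. In RPKM as deposited, the summed level of the 5 subunits was 67.3 and 66.5 in control and 68.9 and 69.9 in ISO. The shares of RELA, RELB and REL did not overlap between the groups, while those of NFKB1 and NFKB2 overlapped. The summed level, unlike the shares, depends on library scaling. Its groups were apart as deposited but overlap once divided by the TMM factors (0.971 and 0.983 in control, 1.01 and 1.03 in ISO). Groups without overlap were common, being seen for 57.1% of all tested genes in TMM-scaled RPKM. No such background was computed for shares or ratios.

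**Figure D2:**
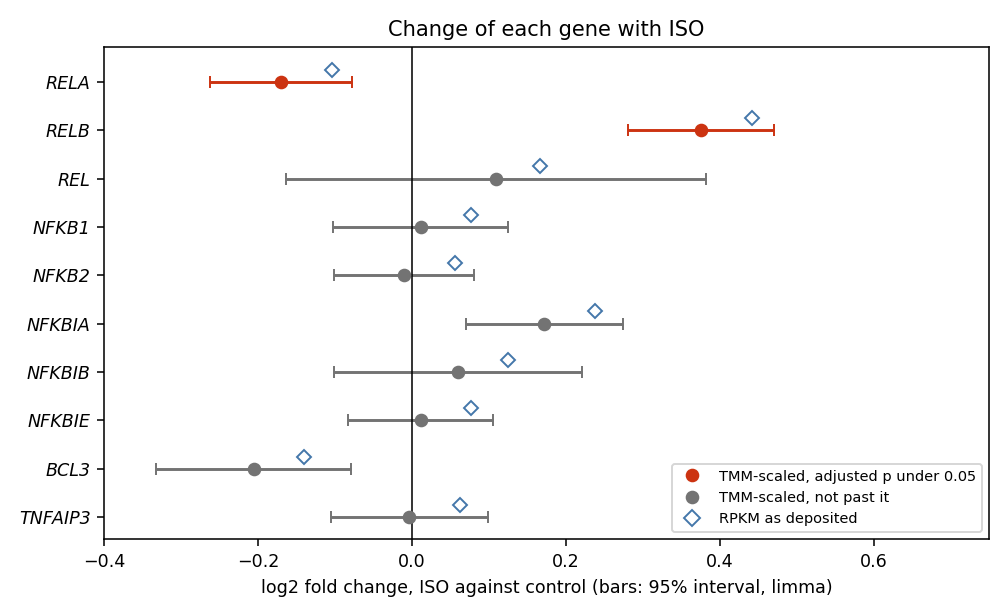
Log2 fold change of each gene, ISO against control, with circles for TMM-scaled RPKM, bars for the 95% interval from limma, and open diamonds for RPKM as deposited. RELB lies at 0.38 and RELA at -0.17; NFKB1, NFKB2, NFKBIE and TNFAIP3 lie within 0.02 of 0 after scaling, and each diamond lies to the right of its circle.

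Among the inhibitors, NFKBIA was by far the most abundant. It encodes IκBα, the fast feedback inhibitor of RELA dimers, and lies at chr14:35401079-35404749 on the minus strand. NFKBIA was at 77.5 RPKM in control a, 77.1 in control b, 87.8 in ISO a and 94.7 in ISO b. Both ISO libraries were above both controls, and the ISO libraries differed more from each other than the controls did. The log2 fold change was 0.17 (standard error 0.042, 95% interval 0.07 to 0.27), which just missed the threshold (adjusted p = 0.054 from limma). It passed on RPKM as deposited (log2 fold change 0.24, adjusted p = 0.020) as it did in limma-voom, which uses the recovered reads (adjusted p = 0.0055). In all it passed under 4 of 13 alternatives, and missed the threshold with any 1 library left out (adjusted p from 0.072 to 0.206).

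The other IκB genes showed less. NFKBIB was at 8.19 RPKM in control a, 8.54 in control b, 8.47 in ISO a and 9.84 in ISO b, and NFKBIE at 14.1, 14.3, 15.2 and 14.9 RPKM in the same order. The NFKBIB groups overlapped, with only ISO b standing apart. Their log2 fold changes were 0.06 (95% interval -0.10 to 0.22, adjusted p = 0.63) and 0.01 (95% interval -0.08 to 0.11, adjusted p = 0.89), both from limma. SIRT2, on the opposite strand, shares 40 of the 2324 exon bases of NFKBIB and stood at 5.48 to 6.30 RPKM.

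BCL3, whose product binds dimers of the small subunits in the nucleus, was at 14.2 RPKM in control a, 13.1 in control b, 12.4 in ISO a and 12.3 in ISO b. The ISO libraries were the lower ones and nearly alike, while the controls differed by more. The log2 fold change was -0.21 (standard error 0.053, 95% interval -0.33 to -0.08, adjusted p = 0.060 from limma), and it passed under 2 of 13 alternatives, limma-voom among them (adjusted p = 0.016). On RPKM as deposited the adjusted p was 0.105, and with 1 library left out it was 0.058 to 0.234. TNFAIP3, a classic feedback target, was at 15.4 RPKM in control a, 14.7 in control b, 15.5 in ISO a and 15.9 in ISO b. Its log2 fold change was -0.0038 (95% interval -0.11 to 0.10, adjusted p = 0.97 from limma), so that a change of TNFAIP3 as large as that of RELB lay outside its interval.

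Ratios between genes of the same library do not depend on how libraries are scaled. Their size, though not their change between libraries, depends on the exon model lengths of both genes. The ratio of RELB to RELA was 0.303 and 0.317 in the controls and 0.445 and 0.462 in the ISO libraries, 1.46 times higher on average. The ratio of NFKB2 to NFKB1, the precursors of the same pathways, was 2.98 and 2.77 in control and 2.77 and 2.88 in ISO, and the groups overlapped. The noncanonical gene thus gained on the canonical one in the first pair, while the second pair showed no separation. An exact permutation test of 2 against 2 libraries cannot give a two-sided p below 0.33, so these ratios are descriptions.

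The ratio of NFKBIA to RELA was 2.43 and 2.49 in the controls and 3.01 and 3.23 in the ISO libraries. The summed RPKM of NFKBIA, NFKBIB and NFKBIE over that of the 5 subunits was 1.48 and 1.502 in control and 1.62 and 1.71 in ISO. Of REL to RELA the ratio was 0.0187 and 0.0215 in control and 0.0247 and 0.0245 in ISO, and of BCL3 to NFKB1 it was 2.25 and 1.97 against 1.80 and 1.81. The ratio of NFKBIE to NFKBIB overlapped between groups, 1.73 and 1.68 against 1.79 and 1.51.

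**Figure D3:**
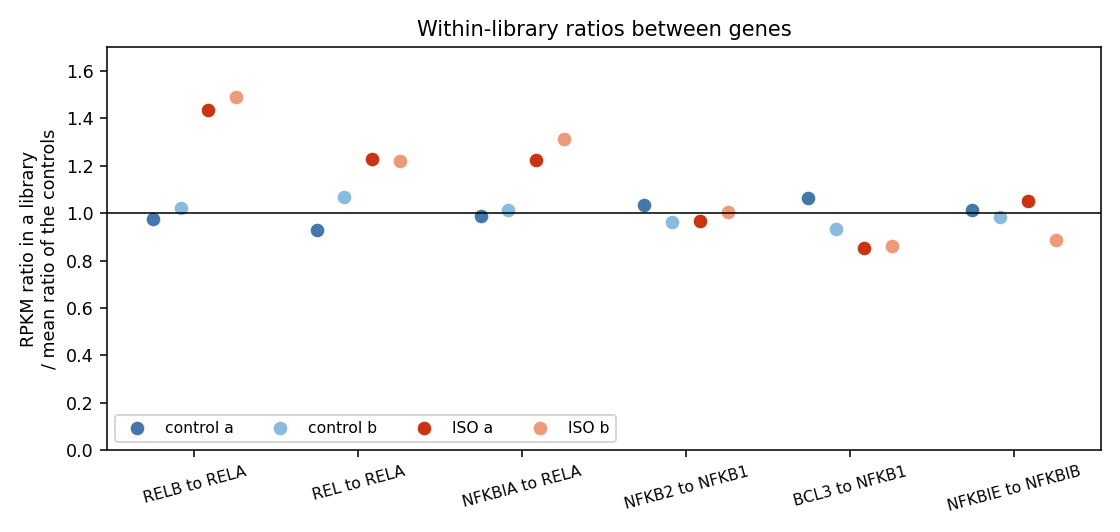
Ratio of the RPKM of one gene to that of another within each library, divided by the mean of that ratio in the controls (linear axis from 0), with 1 point per library. RELB to RELA averages 1.46 times the control ratio in ISO and NFKBIA to RELA 1.27 times, while NFKB2 to NFKB1 and NFKBIE to NFKBIB overlap between the groups.

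Upstream of the subunits, the kinases and adaptors of the canonical pathway were described as a list of 23 genes, all tested, of which 2 rose and 5 fell (median log2 fold change -0.02), beside 3.89% and 5.94% of all tested genes. CARD10, a scaffold that links receptors to NF-κB activation, was at 20.4 and 20.3 RPKM in the controls and at 15.4 and 15.8 in the ISO libraries. It fell by 0.45 in log2 units (adjusted p = 0.0022 from limma), the groups being far apart. Its partner BCL10 and IKBKB, a catalytic kinase subunit that phosphorylates IκB, fell by 0.26 and 0.30 (adjusted p = 0.028 and 0.030 from limma). RBCK1, a component of the linear ubiquitin ligase, and BIRC2, a ubiquitin ligase of receptor complexes, fell by 0.20 and 0.19 (adjusted p = 0.036 and 0.042). TRADD, an adaptor of the tumor necrosis factor receptor, and BIRC3, a relative of BIRC2 and a known NF-κB target, rose by 0.23 and 0.24 in log2 units (limma, adjusted p = 0.032 and 0.028). The other subunits of the IκB kinase complex, CHUK and IKBKG, failed the test (log2 fold changes 0.0027 and 0.02, adjusted p = 0.98 and 0.83). The calls of IKBKB, RBCK1 and BIRC2 were lost on RPKM as deposited (adjusted p = 0.060, 0.085 and 0.080), and any 1 library left out ended those of BCL10, IKBKB, RBCK1, BIRC2 and BIRC3 (adjusted p from 0.051 to 0.165). TRADD held its call only without control a (adjusted p = 0.048), and up to 0.144 without the others.

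Of 18 genes listed for the noncanonical pathway 14 were tested, of which 2 rose and 1 fell (median log2 fold change -0.02), again beside 3.89% and 5.94% of all tested genes, BIRC2 and BIRC3 being on both lists. LTB, which encodes the membrane-bound ligand lymphotoxin beta, was at 8.10 RPKM in control a, 8.79 in control b, 13.2 in ISO a and 16.6 in ISO b. The groups were well separated, although the ISO libraries differed from each other by more than the controls (log2 fold change 0.74 with a standard error of 0.097, limma adjusted p = 0.0086). The receptor of that ligand, LTBR, did not pass, at 22.4 and 22.3 RPKM in control and 21.7 and 23.4 RPKM in ISO. MAP3K14, the kinase of the pathway, was at 1.26 and 1.29 RPKM in control and 1.35 and 1.45 RPKM in ISO, and did not pass (log2 fold change 0.07, 95% interval -0.12 to 0.26, adjusted p = 0.65 from limma). TRAF2 and TRAF3, adaptors that keep that kinase low, failed the test (log2 fold changes -0.07 and 0.02, limma, adjusted p = 0.34 and 0.86).

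Among 20 further IκB proteins and negative regulators, all tested, none rose and 2 fell, beside 3.89% and 5.94% of all tested genes. ITCH, a ubiquitin ligase, and PDLIM2, which promotes the degradation of RELA in the nucleus, fell by 0.28 and 0.31 in log2 units (adjusted p = 0.011 and 0.022 from limma). Without any 1 library PDLIM2 lost its call (adjusted p from 0.065 to 0.103), and ITCH held it only without control a (0.037, against up to 0.064 otherwise). The count of 0 that rose compares with 1 on RPKM as deposited and 0 with limma-voom, and TRAF1 and ZC3H12A were the genes of the list with a positive change at an unadjusted p under 0.05. NFKBIZ and NFKBID, which encode nuclear IκB proteins, had log2 fold changes of -0.19 and 0.15, and TNIP1 and CYLD, which restrain the pathway together with TNFAIP3, had -0.12 and 0.06. None of these 4 passed (adjusted p from 0.13 to 0.54). NFKBIZ was called lower under 2 of 13 alternatives, limma-voom among them (adjusted p = 0.027). In limma-voom 4 genes of the list fell.

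Of 13 receptors and ligands of the canonical pathway 11 were tested, none rose, and the 2 that fell were the interleukin-1 genes, beside 3.89% and 5.94% over all tested genes. Limma-voom called 1 of the list higher. IL1B went from 94.1 and 96.1 RPKM in the controls to 51.6 and 53.3 in the ISO libraries, and IL1A from 54.3 and 57.0 to 39.9 and 39.7 RPKM. Their log2 fold changes were -0.92 and -0.55, in that order (adjusted p = 1.6e-04 and 0.0013 from limma). TNF, at 13.1 to 14.8 RPKM, and its receptor TNFRSF1A, at 45.5 to 47.9 RPKM, failed the test at log2 fold changes of 0.05 and -0.02.

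**Figure D4:**
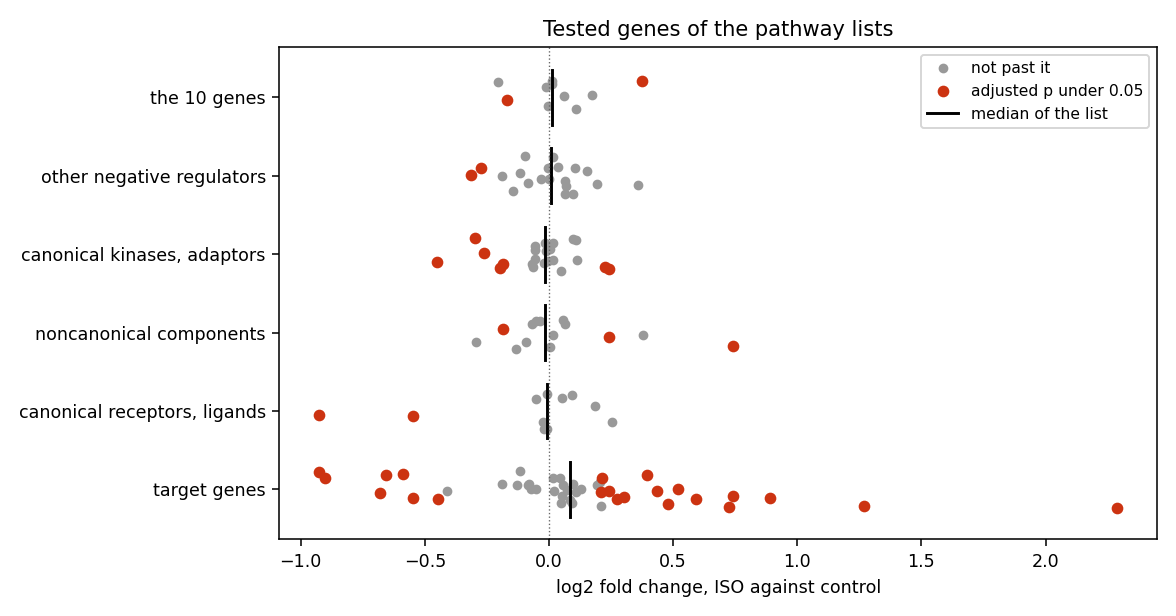
Log2 fold change, ISO against control, of each tested gene of the pathway lists (1 point per gene, red where the adjusted p was under 0.05, vertical bar for the list median). Changes of the 10 genes span -0.21 to 0.38, while target genes span -0.92 to 2.29 and move in both directions.

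Known target genes of NF-κB moved in both directions. Of 50 listed targets 45 were tested, of which 15 rose and 7 fell, set beside the 3.89% and 5.94% of all tested genes (median log2 fold change 0.08). This list shares genes with the lists above. BIRC3 and LTB were thus counted again among those that rose, and IL1B and IL1A among those that fell. The chemokine genes CXCL6, CXCL2 and CXCL3, whose products attract neutrophils, rose by 0.52, 0.48 and 0.40 in log2 units (limma, adjusted p = 0.0026, 0.0047 and 0.0062). CXCL6 was at 198.5 and 209.6 RPKM in the controls and at 308.7 and 302.9 in the ISO libraries. TNFAIP2 and the acute-phase gene SAA1 rose as well (0.43 and 0.59 in log2 units, adjusted p = 0.0074 and 0.0069). CXCL10, a chemokine gene that interferon also induces, had the largest log2 fold change of the list, 2.29. CXCL10 went from 0.171 and 0.282 RPKM in control to 1.29 and 1.81 RPKM in ISO. SOD2, a mitochondrial antioxidant enzyme and a standard target, rose by less (log2 fold change 0.21, adjusted p = 0.019), and lost its call without any 1 library (adjusted p from 0.060 to 0.105). SAA1 and CXCL3 reached 0.061 and 0.051 with 1 library left out.

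The targets that fell included IL1B and IL1A, the cytokine LIF, the protease gene PLAU, IER3 and the survival gene BCL2A1. LIF was at 60.1 and 58.2 RPKM in the controls and at 38.0 and 39.3 in the ISO libraries, and fell by 0.68 in log2 units (adjusted p = 5.8e-04 from limma). PLAU, IER3 and BCL2A1 fell by 0.59, 0.45 and 0.66 (adjusted p = 9.0e-04, 0.0027 and 0.0038), and each held its call under all 13 alternative settings. Other classical targets changed little. IL6 had a log2 fold change of 0.02, CXCL8 one of 0.05 and ICAM1 one of 0.07, and none of these 3 passed (adjusted p = 0.91, 0.59 and 0.33 from limma). Leaving out 1 library at a time gave 6 to 11 targets that rose and 6 to 8 that fell.

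**Figure D5:**
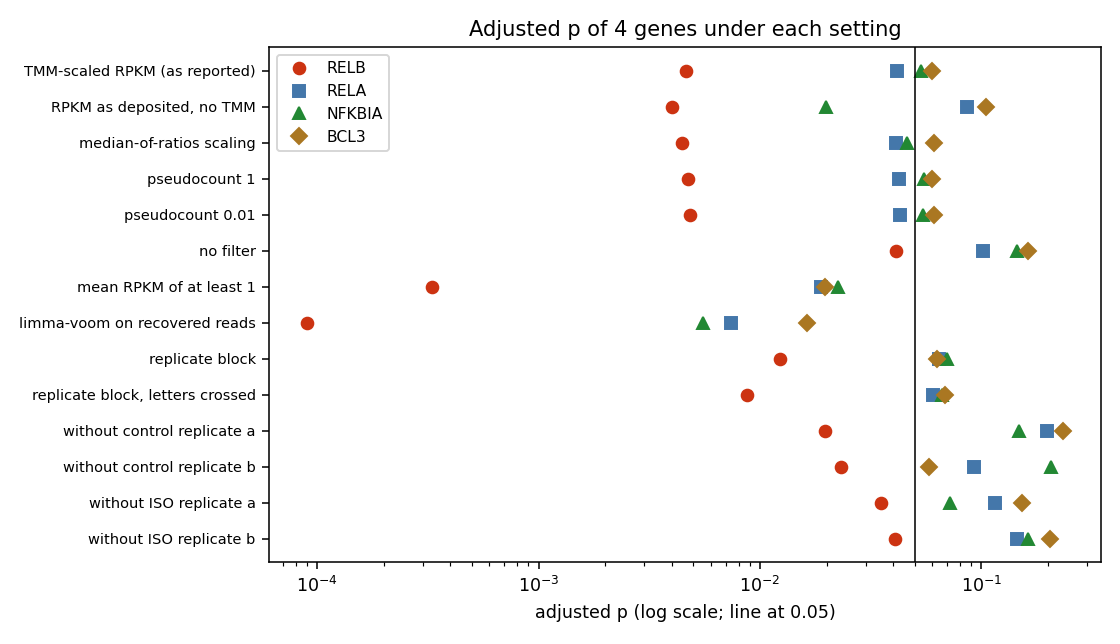
Adjusted p from limma (log axis, line at 0.05) of RELB, RELA, NFKBIA and BCL3 under the reported setting and 13 alternatives. RELB lies left of the line throughout, between 9.0e-05 and 0.041, whereas RELA, NFKBIA and BCL3 cross it between settings.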

How the data were processed

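RNA-seq libraries of T24 cells, 2 control and 2 ISO, were read from 1 table. The authors trimmed the reads, aligned them to hg38 in Biomedical Genomics Workbench 22.0.2, summed reads on exons per gene and deposited RPKM without TMM; their group means in the table were not used. Reads were recovered with GENCODE v44 exon lengths, and at least 98.79% of nonzero values were whole to within 0.05 reads. Genes with a mean of at least 0.1 RPKM were tested with limma 3.58.1 (R 4.3.3, variance trend) on log2(RPKM + 0.1) after TMM scaling (own code, unweighted, 30% of the log ratios and 5% of the levels trimmed), and p-values were adjusted by Benjamini-Hochberg. Near the pseudocount this scale understates fold changes. The study's methods also name TMM, applied in its own software to library sizes before testing; its factors were not used here. This scaling lowered log2 fold changes by a median of 0.064, and the calls of RELA and NFKBIA depend on it. The test was checked on simulated data. The 10 genes and the lists were chosen with earlier results of these data known. Genes named are the 10, the defining pathway proteins, and up to 6 called genes per list and direction by smallest p; TNF, TNFRSF1A, TRAF1, ZC3H12A, SOD2, IL6, CXCL8, ICAM1, the single markers named and the untested low genes were added after their values were seen. Alternatives were other scaling, pseudocounts of 1 and 0.01, other filters, limma-voom, replicate blocks and each library left out. Tables were handled in pandas 2.3.3 and numpy 2.4.6 under Python 3.11.15, and plots drawn in matplotlib 3.10.9.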

Additional observations from a re-analysis of the deposited data

How the results depend on the processing

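RELB kept its direction and call under all 13 alternatives. On RPKM as deposited, 1424 genes rose and 630 fell, the share of higher calls moving from 39.6% to 69.3%, and of the 10 genes 2 rose (RELB and NFKBIA) and 0 fell. Median-of-ratios scaling also gave 2 that rose. With a mean of at least 1 RPKM 900 genes rose, and of the 10 genes 2 rose and 2 fell. Limma-voom gave 1186 and 1535 over all genes, and 2 and 2 of the 10. With no filter, which tests more genes near 0, 54 rose and 160 fell over all genes, 1 and 0 of the 10, and 2 and 7 of the pathway genes. The letters a and b did not deviate together (Pearson r = -0.126 across 6208 genes). With them as a replicate block, or crossed (added after the data were seen), 0 of the 10 fell. Leaving out 1 library at a time gave 105 to 311 higher and 269 to 384 lower over all genes, 1 higher and 0 lower of the 10 in each case, and 6 to 12 higher and 7 to 9 lower of the pathway genes. Of all 1505 calls, 23.3% to 40.2% were kept in such fits.

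Sign changes were seen only in genes without a call. On RPKM as deposited NFKB2 had 0.056, TNFAIP3 0.062 and LTBR 0.013, and for TNFAIP3 median-of-ratios scaling gave 0.0038 and limma-voom 0.0022. With libraries left out in turn the log2 fold change ranged from -0.018 to 0.041 for NFKB1, -0.034 to 0.013 for NFKB2, -0.036 to 0.154 for NFKBIB, -0.015 to 0.037 for NFKBIE, -0.043 to 0.035 for TNFAIP3, -0.029 to 0.035 for CHUK, -0.011 to 0.047 for IKBKG and -0.012 to 0.046 for TRAF3. The cause of these shifts was not tested.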

Other observations

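Some listed genes lay below the mean of 0.1 RPKM and were not tested. TNFRSF1B, which encodes the second receptor of tumor necrosis factor and signals through TRAF2, had 6 recovered reads in control a, 6 in control b, 14 in ISO a and 15 in ISO b. CX3CL1, a membrane-bound chemokine, had 2, 2, 5 and 5 reads in the same order, and SELE, an adhesion molecule of endothelium, had 0, 0, 1 and 1. VCAM1, another adhesion molecule, had 3, 3, 16 and 17. In others the ISO libraries did not both hold more reads than the controls: CCL2 had 0, 1, 0 and 1, LCN2 had 1, 0, 2 and 0, and TLR5 had 6, 6, 6 and 1. In limma-voom on the recovered reads, which required a mean of 10 reads, TNFRSF1B was called higher in ISO (adjusted p = 0.043). The other genes given here did not enter that fit. Such reads are too few to give a level with useful precision. The ligand genes CD40LG, TNFSF11, TNFSF14 and LTA of the noncanonical list had at most 6 reads in any library, and CD40LG had 0 in all 4, which allows up to 3 reads per library.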
